A study of Ovis aries with 95 samples.

Results

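The genes described here carry out 2 linked parts of energy supply, glycolysis and the mitochondrial making and export of ATP. They are GAPDH, LDHA, ATP5PD (named ATP5H on the array), SLC25A5 and CHCHD3. A probe was taken as a member where its gene name, or the gene given in its sequence entry or description, was one of these 5 genes. This gave 10 of the 15008 different gene probes of the array. They stood under 7 names and were tested as 7 rows of 14347, because GAPDH appeared under its symbol and under the entries LOC100101232 and LOC100134932.

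RNA was measured on 95 one-colour arrays from untreated sheep, covering 4 brain regions (cortex, hippocampus, hypothalamus and brainstem). The animals were fetuses at 80, 100, 120, 130 and 145 d of gestation and newborn lambs 1 d after birth, with 4 arrays in each region and age except hippocampus at 100 d, which had 3. No ewe showed labor, no group carried an allele or agent, and each held a pair of twins that the labels do not mark. The 100 d and 145 d groups took in animals of a few neighbouring days, and cortex was a section of frontal cortex. As the labels give no other account of the replicates, p-values measure the spread between these arrays only.

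Glyceraldehyde-3-phosphate dehydrogenase (GAPDH) catalyses the NAD-dependent oxidation step in the middle of glycolysis, and its RNA often serves as a reference in RT-PCR. Lactate dehydrogenase A (LDHA) turns pyruvate into lactate and so returns NAD to glycolysis. ATP5PD is the d subunit of the peripheral stalk of mitochondrial ATP synthase, SLC25A5 is the adenine nucleotide translocator that exchanges ATP for ADP across the inner membrane, and CHCHD3 is part of the complex that holds the cristae in shape. The fetal brain takes up glucose, and oxidative capacity is known to rise as neurons and glia mature.

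The strand of the probes is given first, because the results for GAPDH turn on it. Labelled cRNA made from mRNA is complementary to it, so a probe with the letters of the mRNA can pair with the label and its reverse complement cannot. The pair of LOC100101232 probes is described on the array as the GAPDH mRNA of sheep. The pair named GAPDH was drawn from an expressed sequence tag, and its reverse complement runs along the same stretch: 36 of 39 aligned bases matched, with an identical run of 23 bases shown in capitals.
GAPDH-named probe, as on the array: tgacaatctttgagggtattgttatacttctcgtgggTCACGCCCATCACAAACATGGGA
GAPDH-named probe, reverse complement: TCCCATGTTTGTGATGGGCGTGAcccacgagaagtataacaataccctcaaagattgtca
LOC100101232 probe, as on the array: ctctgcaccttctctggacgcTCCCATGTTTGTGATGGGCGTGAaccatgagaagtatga
Both probes named GAPDH thus lie on the strand opposite to the LOC100101232 probes, and they are called the reversed GAPDH probes below. They share 57 of their 60 bases and are close to repeats of one measurement, as are the LOC100101232 probes, which share 59. The LOC100134932 probe, also described as a sheep GAPDH mRNA, covers another stretch.
LOC100134932 probe: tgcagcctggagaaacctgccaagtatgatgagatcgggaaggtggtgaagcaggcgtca

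Of the other probes, the LDHA pair covers 2 separate stretches of 1 expressed sequence tag, the SLC25A5 probe comes from the gene's RefSeq mRNA, and the ATP5PD and CHCHD3 probes come from expressed sequence tags.
LDHA, first probe: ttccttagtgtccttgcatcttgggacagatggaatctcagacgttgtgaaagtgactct
LDHA, second probe: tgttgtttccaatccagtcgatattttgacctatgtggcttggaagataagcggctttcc
SLC25A5 probe: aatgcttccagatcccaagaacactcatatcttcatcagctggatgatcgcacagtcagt
ATP5PD probe: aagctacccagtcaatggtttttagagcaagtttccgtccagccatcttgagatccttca
A check of open frames did not settle the strand of the ATP5PD probe: from the first ATG, at base 15 on either strand, 15 codons ran without a stop. Its letters were not set against an ATP5PD mRNA or protein sequence, so it may be reversed, as the GAPDH-named probes are. In that case it could not pair with label made from ATP5PD mRNA. No probe of another name shared 16 or more bases with the ATP5PD probe on either strand. The strand of the CHCHD3 probe was not checked, and its letters are not printed. It had 1 open frame on either strand. The array files give no genome coordinates for the member probes, so none are printed.

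All values below are background-corrected, quantile-normalized log2 intensities, so a difference of 1 is a doubling, and the number of arrays limits their precision. Levels of different probes are not set against each other, since brightness depends on the probe. Of the 10 probes, 8 were well above background on all 95 arrays and the other 2, LOC100134932 and CHCHD3, on 94; none was saturated, and all 10 passed the filter on dim probes in each region. Adjusted p-values are Benjamini-Hochberg values over all rows tested in that region or fit, and "passed" means an adjusted p under 0.05.

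Some arrays stood apart. The share of probes well above background was between 59.5% and 88.5%. In hippocampus, 5 arrays, all on 1 of the region's 4 slides, had a median correlation of 0.865 to 0.907 with the other arrays of the region over all probes but the members', against 0.925 to 0.956 for the other 18. They were 100 d replicate 3, 120 d replicate 4, 130 d replicate 3, 145 d replicate 4 and newborn replicate 3, and between 59.5% and 72.3% of their probes were well above background, against 72.2% to 85.1%. In brainstem, newborn replicate 4 had a median correlation of 0.893 against 0.969 to 0.987 for the rest, and held a dim area in which 3 member spots lay. No slide was shared between regions, so slide and region cannot be told apart in any comparison of levels between regions. As whole tissue was used, fewer cells of a type and less RNA per cell cannot be told apart either.

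LDHA rose in cortex and fell in brainstem over gestation. In cortex the 4 arrays read 12.67, 12.37, 12.25 and 12.12 at 80 d, and 13.33, 13.51, 12.99 and 12.61 at 145 d, an increase of 0.76 ± 0.23 (SE; limma, adjusted p = 0.0109). The newborn arrays, at 12.84, 12.81, 13.66 and 13.87, all lay above the 80 d arrays, with a difference of 0.94 (adjusted p = 0.00197). The ages in between climbed through means of 12.58 at 100 d, 12.79 at 120 d and 13.30 at 130 d, the last being the same as the newborn mean of 13.30.

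In brainstem the order was turned. LDHA read 12.18, 12.44, 12.36 and 12.41 at 80 d and 11.22, 11.45, 11.13 and 11.51 at 145 d, without overlap, and fell by 1.02 ± 0.27 (adjusted p = 0.00489), to 0.493 of the earlier level. By 100 d the arrays already lay below those of 80 d, at 11.81, 11.44, 11.36 and 11.66. Newborn brainstem spread widely, with 10.67, 10.99, 11.83 and, on the doubtful replicate 4, 12.63. The whole span gave a fall of 0.82 (adjusted p = 0.0186), which became 1.18 (adjusted p = 5.55e-05) without that array. Without newborn replicate 1 it was -0.53 (adjusted p = 0.087) and without newborn replicate 2 -0.64 (adjusted p = 0.0693), so the call over the whole span rests on those arrays, and the fall to 145 d does not.

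The LDHA level went up with the share of probes well above background on the array, with a correlation of 0.66 in hippocampus, 0.56 in cortex, 0.52 in hypothalamus and 0.37 in brainstem. That share had means of 75.5% at 80 d, 82% at 130 d and 79.4% at 145 d in cortex, and of 83.5% at 80 d and 77.9% at 145 d in brainstem, the directions in which LDHA moved, and its part in the result was not tested.

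Both LDHA probes moved these ways on their own. From 80 d to 145 d the first rose by 0.71 in cortex (adjusted p = 0.00992) and fell by 0.76 in brainstem (adjusted p = 0.0348), and the second rose by 0.81 (adjusted p = 0.0156) and fell by 1.28 (adjusted p = 0.000716). The test of whether this fetal change differed between the 4 regions did not pass for LDHA over all 95 arrays (F test, adjusted p = 0.438). It passed without the 5 hippocampus arrays that stand apart (adjusted p = 0.0262), an alternative chosen after seeing the data.

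In hippocampus LDHA had the widest spread of any region. The 5 arrays that stand apart read between 9.70 and 10.25, and the other 18 between 11.40 and 14.20, so their ranges did not overlap. No age comparison passed with those arrays or without them: the difference from 80 d to 145 d was -0.57 ± 0.99 (adjusted p = 0.833) with them and 0.0994 ± 0.443 (adjusted p = 0.952) without. In hypothalamus LDHA stayed between 9.88 and 12.37, its lowest reading being 145 d replicate 1, and the change to 145 d was -0.44 ± 0.38 (adjusted p = 0.55). One spot of the first LDHA probe was marked an outlier there, at 80 d replicate 1, so that array's value is from the second probe alone.

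**Figure D1:**
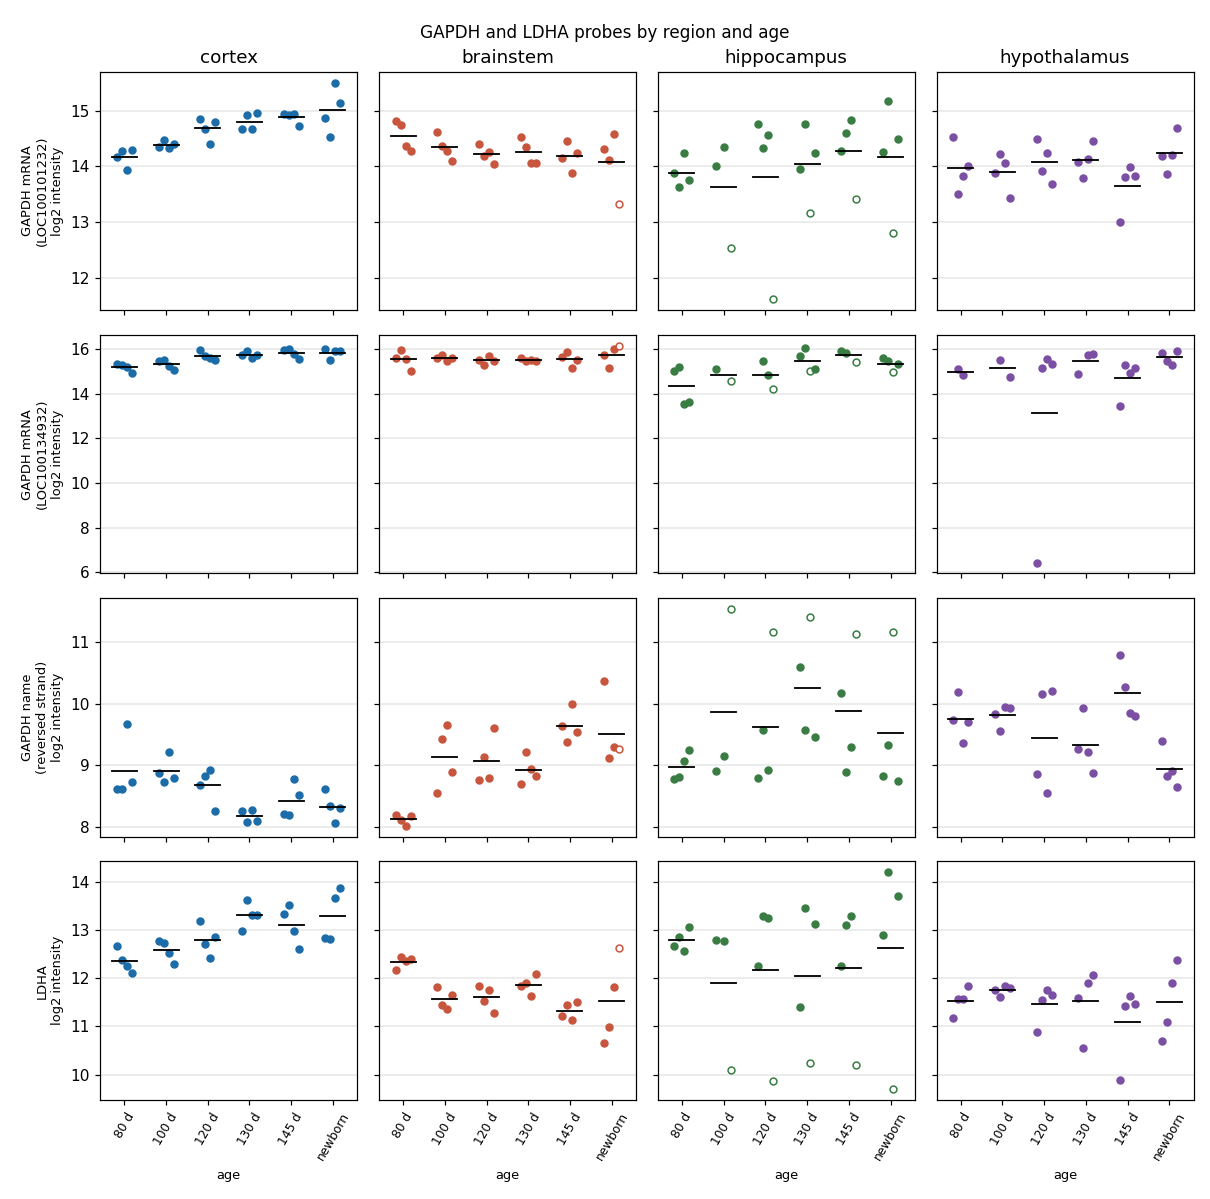
Log2 intensity (vertical axis) of the LOC100101232 and LOC100134932 probes of GAPDH, the reversed GAPDH probes and LDHA in 4 regions (columns) at 6 ages (horizontal axis), 1 point per array, with a black line at each group mean. Open points are the 5 hippocampus arrays and the 1 brainstem array that stand apart; LDHA climbs in cortex and drops in brainstem after 80 d, and a single LOC100134932 spot in hypothalamus reads 6.43.

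The probes that carry the GAPDH mRNA letters rose in cortex. The LOC100101232 probes read 14.18, 14.28, 13.94 and 14.30 at 80 d and 14.95, 14.92, 14.93 and 14.73 at 145 d, an increase of 0.71 ± 0.15 (adjusted p = 0.000473), or 1.63 times. The LOC100134932 probe, on its own stretch, read 15.35, 15.28, 15.21 and 14.95 and then 15.98, 15.99, 15.79 and 15.55, an increase of 0.63 ± 0.13 (adjusted p = 0.000611). In neither case did the 80 d and 145 d arrays overlap. From 145 d to newborn neither moved beyond its error in cortex, with differences of 0.12 ± 0.15 and 0.01 ± 0.13. Over the 24 cortex arrays LOC100101232 had a correlation of 0.58, and LOC100134932 of 0.52, with the share of probes well above background, which was higher at 145 d than at 80 d as given for LDHA; its part was not tested.

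In the other 3 regions the GAPDH mRNA probes passed no age test. In brainstem the LOC100101232 level went from 14.80, 14.74, 14.36 and 14.28 at 80 d to 14.15, 14.45, 13.89 and 14.24 at 145 d, a difference of -0.36 ± 0.20 (adjusted p = 0.174), and one of its probes lay in the dim area of newborn replicate 4. Without that array the same difference had an error of 0.152 and came close to the threshold (limma, adjusted p = 0.0543). LOC100134932 differed in brainstem by 0.02 ± 0.19 with all arrays. In hippocampus LOC100101232 read 11.61 to 13.41 on the 5 arrays that stand apart and 13.62 to 15.17 on the other 18. Without those 5 arrays its span from 80 d to newborn was 0.75 ± 0.243 (adjusted p = 0.0702), against 0.30 ± 0.61 with them (adjusted p = 0.842). LOC100134932 read 15.03, 15.20, 13.52 and 13.62 in hippocampus at 80 d and 15.93, 15.84 and 15.43 on the 3 arrays with a value at 145 d. These did not overlap, but the difference of 1.39 ± 0.41 did not pass (adjusted p = 0.07). The LOC100134932 spot was marked an outlier, and so left out, on 3 hippocampus and 5 hypothalamus arrays, which left 2 values at 80 d in hypothalamus, and its reading of 6.43 at hypothalamus 120 d replicate 1 kept the error of that region at 1.77 for the change to 145 d.

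The reversed GAPDH probes went the other way. In brainstem, where the mRNA probes of GAPDH passed no test, they read 8.19, 8.11, 8.01 and 8.18 at 80 d and 9.64, 9.38, 9.99 and 9.54 at 145 d, an increase of 1.52 ± 0.25 (adjusted p = 7.96e-05), or 2.87 times. All later brainstem arrays lay above the 4 arrays of 80 d, from 8.55 at 100 d to 10.37 in a newborn. In cortex they read 8.62, 8.61, 9.68 and 8.73 at 80 d and 8.61, 8.33, 8.05 and 8.31 in newborns, a fall of 0.58 (adjusted p = 0.0207) while the mRNA probes rose. Without cortex 80 d replicate 3, the array at 9.68, the difference was -0.33 (adjusted p = 0.113), and without newborn replicate 3 it was -0.49 (adjusted p = 0.0728).

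At birth the reversed GAPDH probes fell in hypothalamus. The 145 d arrays read 10.80, 10.27, 9.84 and 9.80 and the newborn arrays 9.39, 8.83, 8.90 and 8.64, without overlap, a fall of 1.24 ± 0.33 (adjusted p = 0.0499). Over the same arrays LOC100101232 read lowest on 145 d replicate 1 and 13.80, 13.98 and 13.82 on the other 145 d arrays, and then 14.18, 13.86, 14.20 and 14.69, a difference of 0.58 ± 0.25 that did not pass (adjusted p = 0.198), and LOC100134932 differed by 0.92 ± 1.45. Leaving out any 1 of 16 among the 24 hypothalamus arrays took the adjusted p above 0.05, with differences between -1.36 and -1.03. The largest adjusted p, 0.163, came without 145 d replicate 1. The call was also lost, at differences of -1.31 to -1.24, with an offset of 16 (adjusted p = 0.0516), without the filter on dim probes (0.0527), with trend and robust settings (0.0517) and without the 5 hippocampus arrays that stand apart (0.0502). Averaging all 5 GAPDH probes, of either strand, gave -0.08 (adjusted p = 0.927).

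Array by array, the reversed probes moved against LOC100101232 and LDHA. Over the 95 arrays the first reversed probe had a correlation of -0.72 and -0.75 with the LOC100101232 probes and the second -0.75 and -0.60, while the reversed pair had 0.92 with each other. After each group's mean was taken out the values were -0.73, -0.74, -0.72 and -0.50. With LOC100134932 they had -0.12 and -0.18. Against the LDHA probes the reversed pair had correlations of -0.60 to -0.72, and against ATP5PD 0.83 for each. The arrays share regions, slides and, in hippocampus, the 5 arrays that stand apart, on which the reversed probes read 11.13 to 11.54 against 8.74 to 10.60 on the other 18, so these values are a description only. Within regions the reversed level went down with the share of probes well above background on the array, with a correlation of -0.69 in hippocampus, -0.61 in cortex, -0.48 in brainstem and -0.27 in hypothalamus. That share was 83.5% ± 5.76 (SD, n = 4) at 80 d and 77.9% ± 3.92 at 145 d in brainstem, and its part in the result was not tested. Which RNA gave the reversed probes their signal was not tested either; on every array they lay at least 1.06 above the limit set from the negative control spots.

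**Figure D2:**
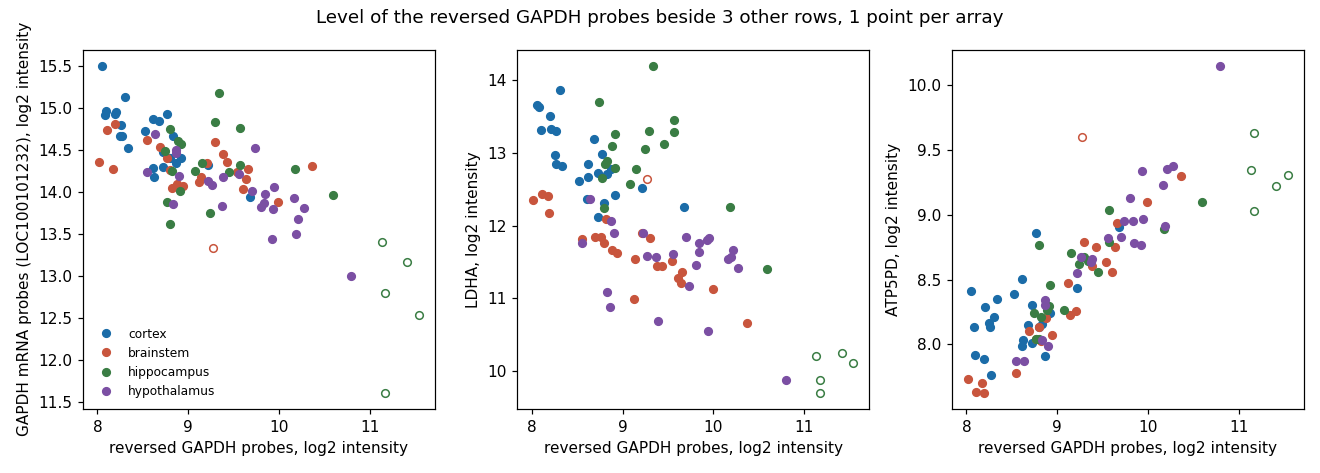
Log2 intensity of the LOC100101232 probes of GAPDH, of LDHA and of ATP5PD (vertical axes) against that of the reversed GAPDH probes (horizontal axis), 1 point per array, coloured by region, with open points for the arrays that stand apart. The first 2 panels slope down and the ATP5PD panel slopes up; the 5 open hippocampus points lie at 11.13 and above on the horizontal axis.

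The ATP5PD probe, whose strand was not settled, moved with the reversed GAPDH probes, rising in brainstem over gestation and falling in hypothalamus at birth. In brainstem it read 7.63, 7.63, 7.73 and 7.70 at 80 d and 8.75, 8.60, 9.1 and 8.64 at 145 d, an increase of 1.1 ± 0.22 (adjusted p = 0.000529), or 2.14 times. Newborn brainstem arrays read 9.30, 8.47, 8.79 and 9.60, and the span from 80 d was 1.37 (adjusted p = 4.95e-05), or 1.18 (adjusted p = 0.000135) without newborn replicate 4. No later brainstem array fell to the level of 80 d, the lowest being 7.78 at 100 d. ATP5PD too went down as the share of probes well above background went up, with a correlation of -0.54 in brainstem, where that share was lower at 145 d than at 80 d, of -0.77 in hippocampus, -0.32 in hypothalamus and -0.09 in cortex. The part of that share in the rise was not tested.

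In hypothalamus ATP5PD went from 10.15, 9.37, 8.78 and 9.13 at 145 d to 8.66, 8.04, 7.98 and 7.87, without overlap, by 1.22 ± 0.30 (adjusted p = 0.0396). This call was lost without any 1 of 9 arrays, namely 80 d replicate 4, 100 d replicates 1 and 3, 145 d replicates 1, 2 and 4 and newborn replicates 2, 3 and 4, where the difference was between -1.30 and -0.96 and the largest adjusted p was 0.14, without 145 d replicate 1. It was lost too with the signal processed by the scanner software (-1.44, adjusted p = 0.0644). In cortex ATP5PD did not pass at any contrast, with a change of 0.05 ± 0.18 to 145 d. In hippocampus it read 9.03 to 9.63 on the 5 arrays that stand apart and 8.04 to 9.1 on the others, and passed no test with them or without them. As its strand was not settled here, the level is that of the probe and not shown to be that of the ATP5PD mRNA.

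SLC25A5, the ADP/ATP translocator, rose in cortex and passed no test in the other 3 regions. It read 14.66, 14.82, 14.55 and 14.90 at 80 d, dipped to between 14.39 and 14.55 at 100 d, and reached 15.15, 15.02, 15.23 and 15.27 at 145 d, a rise of 0.43 ± 0.12 (adjusted p = 0.0041). The newborn arrays, between 14.90 and 15.37, were 0.41 above 80 d (adjusted p = 0.00563). Over the cortex arrays SLC25A5 had a correlation of 0.47 with the share of probes well above background. That share had means of 75.5% at 80 d, 79.4% at 145 d and 80.3% in newborns, and its part was not tested. From the signal as processed by the scanner software, after scaling by the 75th percentile, the differences were 0.18 (adjusted p = 0.303) and 0.13 (adjusted p = 0.47), so the cortical call was lost when background correction and scaling were both replaced. The F test of whether the fetal change differed between regions did not pass (adjusted p = 0.932), nor did it without brainstem newborn replicate 4 (adjusted p = 0.736). Its error also holds the spread of the 5 hippocampus arrays that stand apart.

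In brainstem SLC25A5 showed no change that rests on more than 1 array. It read 14.73 to 15.12 at 80 d and 14.78 to 14.98 at 145 d, and in newborns 15.01, 14.76, 14.77 and 7.20. The last is the spot in the dim area of replicate 4, where the median of 114 neighbouring spots lay 1.46 below the median of the region. The birth difference was -1.96 ± 1.03 (adjusted p = 0.277) with that array and -0.05 (adjusted p = 0.897) without it. In hippocampus the 5 arrays that stand apart read 12.42 to 12.82 and the other 18 arrays 13.21 to 15.56.

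CHCHD3, the cristae protein, fell in cortex from 13.81, 14.07, 13.93 and 14.34 at 80 d to 13.53, 13.38, 13.98 and 13.72 at 145 d, by 0.39 ± 0.14 (adjusted p = 0.0249), and these groups overlapped. By birth the arrays, at 13.40, 13.42, 13.68 and 13.67, lay below all of those at 80 d, a fall of 0.49 (adjusted p = 0.00465). Over the cortex arrays CHCHD3 had a correlation of -0.41 with the share of probes well above background, which was higher at both later ages than at 80 d. The part of that share was not tested. The call at 145 d was lost without cortex 80 d replicate 2 or 4 or 145 d replicate 1 or 2, where the difference was -0.38, -0.28, -0.34 and -0.30, with adjusted p-values of 0.0511 to 0.103; that at birth was kept without each of these.

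In brainstem CHCHD3 turned on the same dim area. It read 13.83, 13.80, 13.88 and 14.04 at 80 d and 13.56, 13.52, 13.63 and 13.63 at 145 d, without overlap, and then 14.03, 13.64, 13.49 and 6.62 in newborns. With all arrays the difference to 145 d was -0.30 ± 0.96 (adjusted p = 0.839). Without newborn replicate 4 the same difference had an error of 0.101 and passed (adjusted p = 0.0162), and the F test over ages passed too (adjusted p = 0.0169). In hypothalamus the change to 145 d was -0.36 ± 0.17 (adjusted p = 0.195) and in hippocampus -0.45 ± 0.31 (adjusted p = 0.523). The direction was thus down in all 4 regions. The F test of a difference between regions did not pass, with all arrays (adjusted p = 0.999) or without newborn replicate 4 (adjusted p = 0.987). As the strand of the CHCHD3 probe was not checked, the level is that of the probe and not shown to be that of the CHCHD3 mRNA.

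**Figure D3:**
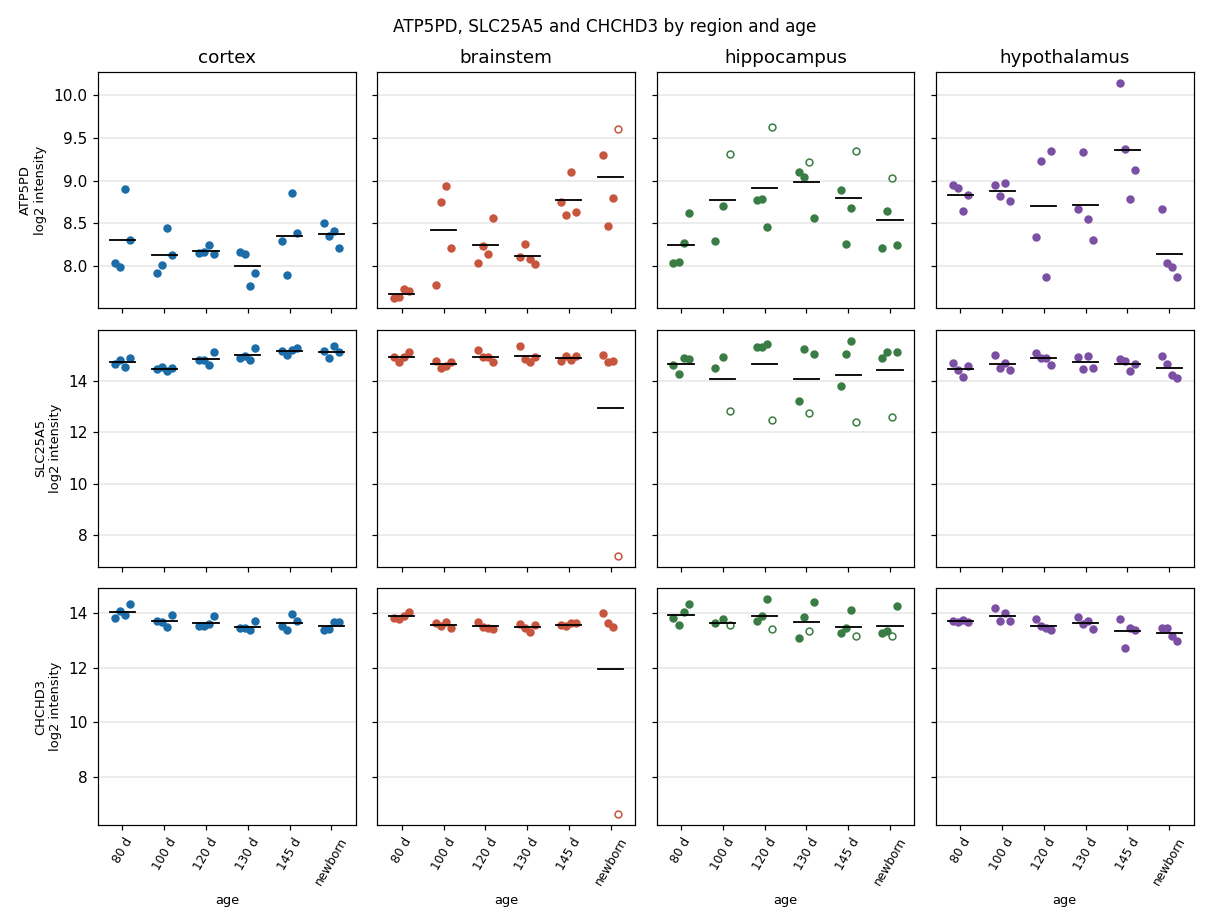
Log2 intensity (vertical axis) of ATP5PD, SLC25A5 and CHCHD3 in 4 regions (columns) at 6 ages (horizontal axis), 1 point per array, with a black line at each group mean and open points for the arrays that stand apart. The open newborn brainstem points of SLC25A5 and CHCHD3, at 7.20 and 6.62, are the spots in the dim area of that array.

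Counted together, 6 of the 7 rows passed the F test for any change from 80 d at the 5 later ages in cortex, where 46.3% of all rows passed, and 3 of 7 in brainstem, where 41.3% did. None passed in hippocampus, where 3.02% of all rows passed, or in hypothalamus, where 15.6% did; without adjustment, 1 and 3 rows had a p under 0.05. From 80 d to 145 d, 4 rows rose and 1 fell in cortex (41.9% of all rows passed) and 2 rose and 1 fell in brainstem (38.1%), and none passed in hippocampus (4.35%) or hypothalamus (13.6%), where 1 row each had an unadjusted p under 0.05. From 145 d to newborn the only calls were the 2 falls in hypothalamus (2.4% of all rows); none was made in cortex (0.252%), brainstem (4.97%) or hippocampus (0.00772%), nor at an unadjusted p under 0.05. Over the whole span 6 rows passed in cortex (45.3%), 3 in brainstem (43.4%), and none in hippocampus (5.5%) or hypothalamus (17.5%), with 1 and 3 rows at an unadjusted p under 0.05. The median difference of the 7 rows from 80 d to 145 d was 0.43 in cortex and -0.03 in brainstem, beside -0.01 and 0.00 for all rows. Without brainstem newborn replicate 4, the count over ages was 10 row and region pairs in place of 9.

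**Figure D4:**
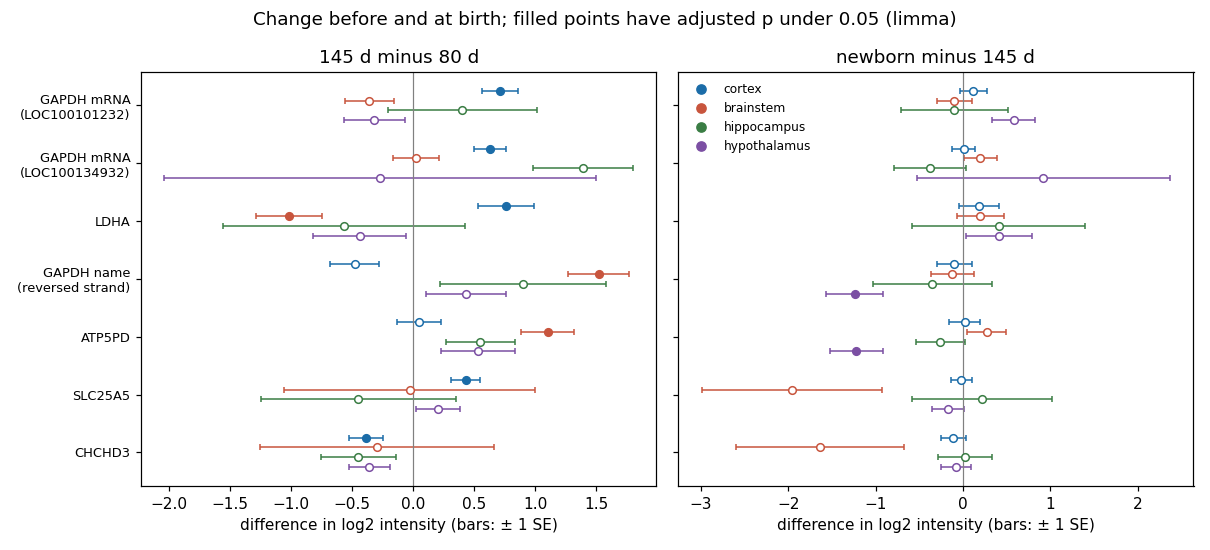
Difference in log2 intensity (horizontal axis, bars ± 1 SE) from 80 d to 145 d (left) and from 145 d to newborn (right) for the 7 rows (vertical axis) in 4 regions (colours), with filled points where the adjusted p was under 0.05. LDHA and the LOC100101232 probes lie right of 0 in cortex and left of it in brainstem, where the reversed GAPDH probes and ATP5PD lie to the right; the 2 filled points at birth are the falls of 1.24 and 1.22 in hypothalamus.

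By the methods, each age had 4 animals, so its 4 regions share animals, but the labels do not say which arrays share an animal, and the tests between regions treat the arrays as independent. Between regions at 80 d, 2 of the 7 rows differed, against 23.2% of all rows. These were the reversed GAPDH probes (adjusted p = 0.0194) and ATP5PD (adjusted p = 0.00409), both lowest in brainstem and highest in hypothalamus. Of the 6 pairs of regions only brainstem and hypothalamus differed, by -1.63 ± 0.421 and -1.16 ± 0.258, and no neighbours in that order passed. LDHA means at 80 d were 12.78 in hippocampus, 12.35 in cortex, 12.34 in brainstem and 11.54 in hypothalamus, and no pair passed. At 145 d, 4 rows differed, against 32.5% of all rows: the reversed GAPDH probes (adjusted p = 0.00327), LOC100101232 (adjusted p = 0.0401), LDHA (adjusted p = 0.0138) and ATP5PD (adjusted p = 0.0138).

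At 145 d LDHA was highest in cortex, with a mean of 13.11 ± 0.40 (SD, n = 4), then 12.21 ± 1.41 in hippocampus, 11.33 ± 0.18 in brainstem and 11.10 ± 0.82 in hypothalamus. Cortex exceeded brainstem by 1.78 ± 0.576 (adjusted p = 0.0177) and hypothalamus by 2.01 ± 0.576 (adjusted p = 0.00861), and no other pair passed. LOC100101232 was likewise highest in cortex, 1.23 ± 0.361 above hypothalamus (adjusted p = 0.0105). The reversed GAPDH probes were lowest in cortex, which lay below brainstem, hippocampus and hypothalamus by 1.22, 1.45 and 1.76 (adjusted p = 0.0283, 0.0133 and 0.00144). ATP5PD in cortex lay 1.00 below hypothalamus (adjusted p = 0.00318), the only one of its 6 pairs to pass. The test of whether the fetal change differed between regions passed for 10.5% of all rows and for none of the 7, with 2 at an unadjusted p under 0.05; the test for the change at birth passed for 0.0218% of all rows and for none of the 7, with 1 at an unadjusted p under 0.05. Without the 5 hippocampus arrays that stand apart, the fetal change differed between regions for the reversed GAPDH probes (adjusted p = 0.00129), LOC100101232 (adjusted p = 0.00298) and LDHA (adjusted p = 0.0262).

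Genes of the same pathways were listed with the members kept in. For glycolysis 9 of 39 symbols had named probes, LDHA and GAPDH among them, GAPDH entering under its symbol and so as the reversed probes. In cortex 7 of the 9 passed over ages, LDHA and the reversed GAPDH probes among them, where 46.3% of all rows did. GLUT-1 (the glucose transporter SLC2A1) had the lowest adjusted p and a rise of 0.939 to 145 d, followed by ALDOA (aldolase A), which rose by 1.52. In brainstem 6 passed, LDHA among them, where 41.3% of all rows did. They were led by SLC16A1, the lactate and pyruvate transporter MCT1, which rose by 2.43, with the reversed GAPDH probes as given above. In hypothalamus, where 15.6% of all rows passed, only SLC2A3, the neuronal glucose transporter, did, with a rise of 0.815 to 145 d. GLUT-1 then fell by 0.531 at birth in cortex (adjusted p = 0.0498) and SLC16A1 by 0.812 in brainstem (adjusted p = 0.0234). The list's median difference to 145 d was 0.12 in cortex and 0.12 in brainstem.

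Of 102 symbols of the respiratory chain and ATP synthase only 6 had a named probe, the member ATP5PD among them. In cortex 3 of them passed, beside 46.3% of all rows. ATP5MC2, a gene of the membrane c subunit, fell by 0.868, ATP5MC1, another c subunit gene, rose by 0.735, and ATP5PO, the stalk subunit next to F1, fell by 0.519. In brainstem, where 41.3% of all rows passed, the ATP5PD probe, of unsettled strand, and NDUFA12, an accessory subunit of complex I, passed. NDUFA12 rose by 0.325 to 145 d and fell by 0.311 at birth (adjusted p = 0.0431). The citrate cycle list had 2 named genes of 28: IDH1, the cytosolic isocitrate dehydrogenase, fell by 1.32 in cortex, and ME1, malic enzyme, rose by 0.331.

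Carriers, channels and cristae genes had named probes for 12 of 41, the members SLC25A5 and CHCHD3 among them. The 3 translocator isoforms of the list went different ways in cortex: SLC25A4 rose by 1.40, SLC25A5 by 0.43 as given above, and SLC25A6 fell by 1.02 (adjusted p = 2.19e-09, 0.0041 and 1.22e-06). SLC25A6 also fell by 0.714 in brainstem and by 1.16 in hypothalamus. CKB, the brain creatine kinase, rose by 1.52 in cortex and 1.36 in brainstem, and in hypothalamus by 0.86 from 80 d to newborn. PPARGC1A, a coactivator of mitochondrial biogenesis, fell by 0.464 in brainstem, and UCP1, the uncoupling protein of brown fat, by 0.579 from 80 d to newborn in hypothalamus.

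Among oxygen-responsive genes 5 of 21 had a named probe. VEGFA, the vascular growth factor, rose by 1.33 to 145 d in brainstem and fell by 1.01 at birth (adjusted p = 0.0123), and HIF1A, the oxygen-regulated transcription factor, fell by 0.461 in brainstem. In cortex all 4 of those tested passed over ages (GLUT-1, HIF1A, VEGFA and EPAS1), and in brainstem 3 of 5. Of all rows, 46.3% passed over ages in cortex and 41.3% in brainstem. Of the 19 symbols often used as RT-PCR references, 5 had a named probe. In cortex 4 of the 4 tested passed over ages, among them PPIA (cyclophilin A), which rose by 0.366 to 145 d, TBP (the TATA-binding protein), which fell by 0.301, and the reversed GAPDH probes as given. In brainstem 3 of 4 passed, and TBP rose by 0.541 over the whole span. In hippocampus, where 3.02% of all rows passed, no gene of these lists passed the test over ages.

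Cell type markers moved with age beside these genes. The mean level over the 6 named astrocyte markers of 12 went from 9.65 at 80 d to 11.57 at 145 d in cortex and from 10.82 to 11.81 in brainstem, and that over 3 oligodendrocyte markers of 13 from 8.07 to 11.63 and from 10.53 to 14.34. The 5 proliferation markers of 11 went down, from 8.45 to 7.60 and from 8.81 to 7.54. Microglia (2 named of 12) and endothelial markers (5 of 10) had means of 7.09 to 7.98 and 7.67 to 8.37 over all groups, and erythroid markers (2 of 12) of 9.17 to 11.03. Choroid plexus markers (2 of 7) had means of 8.13 to 9.27 in cortex and 10.15 to 12.17 in brainstem. Of the 7 named pituitary markers of 8, POMC and LHB were well above background on all 95 arrays, PRL on 86, CGA on 30, FSHB on 11, GH on 7 and POU1F1 on 3. PRL, the prolactin gene, fell by 3.53 from 80 d to 145 d in brainstem (adjusted p = 0.000792), where LDHA, ATP5PD and the reversed GAPDH probes also changed, and POMC fell by 0.884 in hypothalamus (adjusted p = 0.0363). Of the 3 pituitary markers tested in brainstem, only PRL passed from 80 d to 145 d, and the list's median difference was 0.07. Of the 6 tested in hypothalamus, only POMC passed, and the median was -0.07. No marker of the neuron list had a named probe, so the labelled tissues were checked on glial markers only. GFAP, AQP4 and both glutamate transporters EAAT1 and EAAT2 were well above background on all 95 arrays. The part of these shifts in the results above was not tested.

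Over the 24 means of region and age, the named gene most like the reversed GAPDH probes was ATP5PD, with a correlation of 0.88, also 0.88 over the 18 means without hippocampus. LOC100101232 was most like CRHR1, CTSF and ALDOA (each 0.87), and LDHA most like SST1 (0.88), CHRM3 (0.87) and ACVR1B (0.85), each to 2 decimals. LOC100134932 was most like ZFP36 (0.69), SARS (0.68) and MAPKAP1 (0.66). ATP5PD, beside the reversed GAPDH probes, was most like MAST (0.85) and SPP1 (0.81), and the reversed GAPDH probes were next like MAST (0.85) and TNNC2 (0.84). SLC25A5 was most like CTSB (0.71), CALM2 (0.69) and NARS (0.69). CHCHD3 was most like a pair of ribosomal protein genes, RPL13A (0.89) and RPS20 (0.81), followed by ODC1 (0.74). The means share arrays and slides, and the genes were the highest of 940 or 941, so these values are given as a description.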

How the data were processed

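RNA of 95 samples was hybridized by the authors as Cy3-labelled cRNA to one-colour Agilent sheep arrays of 15208 gene spots, and the spot intensities of each array were deposited as the scanner software (version 10.1.1.1) wrote them. A second deposited table holds log2 values of 11138 probes, background-corrected and normalized with limma by the authors; it served as an alternative, and no column of it was left unused. Here, mean and local background intensities were corrected with normexp (offset 50) and quantile-normalized over all arrays in limma 3.58.1 (R 4.3.3), spots marked as outliers were dropped, and probes were kept where they exceeded 1.1 times the 95th percentile of 77 negative control spots on at least 4 arrays of a region. Probes of 1 name, updated through the RefSeq table of the sheep assembly, were averaged. Of the probes, 726 were named by accession, 139 by gene identifier, 484 by symbol, 20 by synonym and 287 by the file alone, and the rest kept an identifier.

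Age was tested by region (lmFit and eBayes, F test for any change from 80 d, and 3 contrasts), and region in a fit over all 95 arrays, taken as independent although regions share animals. The F test stands in for the authors' BETR, which was not at hand. GAPDH was kept in 3 rows, by name and strand, where 1 gene mean had been planned; the mean over all its probes was run as an alternative chosen after seeing the data, as was leaving out 5 hippocampus arrays with a median correlation under 0.92 to their region. Genes most like a member were ranked among named genes by Pearson correlation over group means, and genes of the other lists were named by the lowest adjusted p over ages, up to 3 in each region and list, of which some are not reported here. In data simulated on the real spread, with 200 changed genes, the change from 80 d to 145 d was recovered for 42% of genes changed by 1 in hippocampus, 69% in hypothalamus, 78% in brainstem and 88% in cortex. For genes changed by 0.5 it was recovered for 3%, 25%, 26% and 54%, in the same order. Of the calls, 4.26%, 1.05%, 9.57% and 6.58% were false. The noise was normal and independent between arrays, without slides, dim areas or arrays that stand apart, so real recovery may differ. All changed genes moved in 1 direction at an age. They were 200 of 12600 in cortex and of 12477 in brainstem, where 41.9% and 38.1% of rows passed in the data. The adjusted threshold was thus harder to pass in the simulation of these regions. The members and lists were chosen with earlier results of these data known. Alternatives are listed in the closing section.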

Additional observations from a re-analysis of the deposited data

Results flagged for a closer look

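Of 156 groups of 4 arrays over the 7 rows, 11 held 1 array far from the other 3, by a gap test that flags about 1 group in 20 by chance. For SLC25A5 these were 7.20 in brainstem newborn replicate 4, 12.50 in hippocampus 120 d replicate 4 and 12.61 in hippocampus newborn replicate 3. For CHCHD3 they were 6.62 in brainstem newborn replicate 4 and 13.91 in cortex 120 d replicate 4. The LOC100101232 probes of GAPDH gave 14.73 in cortex 145 d replicate 4 and 11.61 in hippocampus 120 d replicate 4, and the LOC100134932 probe gave 6.43 in hypothalamus 120 d replicate 1. The reversed GAPDH probes gave 9.68 in cortex 80 d replicate 3 and 10.37 in brainstem newborn replicate 1, and LDHA gave 9.88 in hypothalamus 145 d replicate 1. Of these 11 values, both of brainstem newborn replicate 4 lay in the dim area of that array, and the 3 hippocampus values came from arrays that stand apart from their region.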

How the results depend on the processing

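Counts below are of row and region pairs for age and of rows for regions. Of 248 single values recomputed under other settings, 238 kept their direction and side of the threshold, 8 lost the call and 2 turned. CHCHD3 at birth in brainstem was 0.13 without newborn replicate 4, and the newborn difference of GAPDH in cortex was 0.23 with all 5 probes as 1 gene. Of 504 values with 1 array left out, 470 were kept, 33 lost the call and 1 turned, again CHCHD3 (-2.33 to 0.13). The 2 calls at birth became 1 with an offset of 16, with the processed signal, without a filter, with trend and robust settings, without the 5 hippocampus arrays and with GAPDH as 1 gene; the call lost was ATP5PD with the processed signal and the reversed GAPDH probes in the others. The 4 calls between regions at 145 d became 2 with the processed signal, with the brightest probe and with GAPDH as 1 gene, and the 2 at 80 d became 4 without the hippocampus arrays and 1 with GAPDH as 1 gene. Calls of a regional difference in fetal change, 0 in the results, were 1 with slide as a block and 3 without the hippocampus arrays. With GAPDH as 1 gene 5 of the 9 age calls were made, and with every probe on its own 15 of 40 probe and region pairs were called over the whole span, beside 9 of 28 row and region pairs. With 1 array left out in turn, counts were 8 to 10 over ages, 7 to 9 to 145 d, 0 to 2 at birth, 8 to 10 over the whole span, 1 to 3 and 2 to 5 between regions at 80 d and 145 d, 0 to 1 for fetal change and 0 to 0 for birth change; the 16 arrays that lowered the count at birth were all of hypothalamus, and the lowest counts between regions came without hypothalamus 80 d replicate 2 (1 at 80 d), cortex 145 d replicate 2 and hypothalamus 145 d replicate 1 (2 each at 145 d). A fetal difference was called without hippocampus 100 d replicate 3, 120 d replicate 4, 145 d replicate 2 or newborn replicate 3, or hypothalamus 120 d replicate 1.

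With the replicate number as a block, 9 calls were made over ages, 10 to 145 d, 2 at birth and 12 over the whole span, and none of the 21 single results lost its call. Between regions, a random block of age and number gave the same counts, 2, 4, 0 and 0 (consensus correlation 0.0323). Same-numbered arrays of a region had deviations correlated at a median of 0.103 (119 of 235 pairs above 0.1), against -0.041 for other pairs, and those of an age in different regions at 0.055 (56 of 141), against -0.044. Same-numbered arrays of a region are of different ages and often shared a slide, so their correlation cannot speak to shared animals. Not every pair was above 0.1, a mark that arrays of 1 animal could also miss. As the labels tie no number to an animal, the numbers were not taken as pairs. The cause of none of these shifts was tested. The lowest single readings over the limit from negative controls were -0.153 for LOC100134932 and -0.0294 for CHCHD3 on the log2 scale, and the median readings were lowest for ATP5PD, at 1.8.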
